A study of Homo sapiens with 11 samples.

Results

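Heme breakdown and iron handling were followed through 10 genes, found by gene symbol among the 60612 genes of the deposited table. They are the heme oxygenase HMOX1, the biliverdin reductases BLVRA and BLVRB, the ferritin subunits FTH1 and FTL, the iron importer TFRC, the iron exporter SLC40A1, the ferritin receptor NCOA4, and the iron regulatory proteins IREB2 and ACO1. The study exposed RKO and HCT-116, cell lines established from human colorectal cancers, to the aromatic aldehyde phenylacetaldehyde (PAA) and sequenced their RNA. The 11 libraries were RKO with PAA for 24 h (n = 3), RKO with DMSO vehicle at 0.1% (n = 2, numbered 2 and 3), HCT-116 with PAA for 24 h (n = 3) and HCT-116 with DMSO vehicle at 0.1% (n = 3). The labels name no genetic change in either line. They give no PAA dose and no time for the vehicle arm. The labels do not say that replicates were separate cultures, so a p-value here reflects only how far these libraries spread, and that spread may be technical.

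Heme oxygenase opens the heme ring and releases iron, carbon monoxide and biliverdin, and biliverdin reductase then turns biliverdin into bilirubin. Free iron is stored inside ferritin, a shell built of a heavy subunit that oxidises iron (FTH1) and a light subunit that helps it mineralise (FTL). NCOA4 carries ferritin to the lysosome, where the stored iron is set free. Cells take up iron bound to transferrin through the receptor TFRC and export it through ferroportin, the product of SLC40A1. ACO1 and IREB2 encode the iron regulatory proteins IRP1 and IRP2, which bind iron-responsive elements, short RNA hairpins with a CAGTGN loop (CAGUGN in RNA). Bound in the 5′ untranslated region (UTR), as in ferritin and ferroportin, they block translation. Bound in the 3′ UTR, as in TFRC, they protect the RNA from decay. When iron is plentiful both proteins leave the RNA, and IRP1 becomes a cytosolic aconitase. HMOX1 and both ferritin genes are also known targets of the stress factor NRF2 (gene NFE2L2).

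The hairpins are the elements named above, so the sequences among the 10 genes that match their form are given first, as a match of letters and pairing with no binding data. GENCODE 29 transcripts on GRCh38 were searched on the sense strand for an unpaired C, a stem of 5 base pairs (G with U allowed) and the loop CAGTGN. Sites were found in 4 of the 10 genes, and 168 of 19684 coding genes (0.853%) held one in a UTR. Each site is printed 5′ to 3′ as DNA with 6 bases of flank on each side of the 17-base core, and the capitals mark the 6-base loop. The ferritin and ferroportin sites lie in the 5′ UTR, and the 4 TFRC sites lie in its 3′ UTR.
FTH1, chr11:61967574-61967602, minus strand: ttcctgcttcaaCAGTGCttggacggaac
FTL, chr19:48965335-48965363, plus strand: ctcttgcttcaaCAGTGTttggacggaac
SLC40A1, chr2:189580661-189580689, minus strand: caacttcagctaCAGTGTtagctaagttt
TFRC site 1, chr3:196050979-196051007, minus strand: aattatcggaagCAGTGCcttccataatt
TFRC site 2, chr3:196050575-196050603, minus strand: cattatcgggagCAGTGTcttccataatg
TFRC site 3, chr3:196050510-196050538, minus strand: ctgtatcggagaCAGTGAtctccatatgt
TFRC site 4, chr3:196050463-196050491, minus strand: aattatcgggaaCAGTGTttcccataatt
The other 6 genes had no match to these letters. The search says nothing of hairpins of another form, in these 6 genes or in the 4 with sites, so the site counts may be incomplete. The site of FTH1 was present in 10 of its 12 annotated transcripts and absent from FTH1-207 and FTH1-211. The site of SLC40A1 was present in 3 of its 7 transcripts. The sites of TFRC were present in 3 of its 15 transcripts, TFRC-201, TFRC-202 and TFRC-203.

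Values are FPKM, fragments scaled by length and by library size. For 78.7% of the gene values checked, that length was, to within 2%, the length of all annotated exons merged. Comparisons of level between genes therefore depend on the annotated length, and they are given here as deposited. In HCT-116 with PAA the isoform FPKM of FTH1 summed to 2550, against a gene value of 1170. For FTL both were 4380. Tests used limma on log2(FPKM + 1) over 13881 genes, those that reached 1 FPKM in no fewer than 2 libraries, and a gene was called at a Benjamini-Hochberg adjusted p under 0.05. Every adjusted p below is from that two-sided limma test, or from its isoform version, except those of the within-library ratios, which are from exact permutation tests, and a fold change on this scale understates that of low genes. Of the 10 genes, 9 were tested and SLC40A1 was too low. In bulk RNA, fewer cells expressing a gene and less RNA per cell cannot be told apart.

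In the libraries as a whole, estimated depth was 13650000 to 22780000 fragments and 11634 to 12133 genes reached an FPKM of 1. That depth is rough, since it takes the most common low value as 1 fragment. Only 16.1% to 20.7% of low values were whole multiples of it. The share of FPKM from mitochondrially encoded genes was 18.4% ± 0.17 in RKO with PAA, 34.3% ± 0.78 in RKO with DMSO, 31.3% ± 0.12 in HCT-116 with PAA and 39.3% ± 1.01 in HCT-116 with DMSO (SD). It moved with PAA in both lines, and scalings that treat it differently were therefore compared. With every library set to a common total, the median log2 fold change over every tested gene became 0.28 in RKO, where it was 0.06 as deposited, and 0.07 in HCT-116, where it was -0.01. Of 8 colorectal epithelial markers, EPCAM, KRT8, KRT18 and CDX2 were tested, and KRT20, CDX1, VIL1 and LGALS4 stayed below an FPKM of 1 in every library. The summed epithelial markers ranged from 31.4 to 33.9 FPKM in RKO and from 331 to 407 FPKM in HCT-116. No erythroid marker (0 of 6, including the globins and ALAS2) was tested, and their sum was at most 1.23 FPKM, so RNA of red cells, which is rich in heme genes, was at or near 0. The 6 immune markers summed to 245 to 248 FPKM in RKO with PAA, 203 to 205 in RKO with DMSO, 7.49 to 8.17 in HCT-116 with PAA and 1.8 to 3.27 in HCT-116 with DMSO. Of these only CD68, a lysosomal glycoprotein, was tested, while PTPRC and CD3E, which define immune cells, were listed at 0 in every library. The part of these marker levels in the results was not tested. Hepatocyte markers (4 genes) summed to at most 5.11 FPKM, and stromal and endothelial markers (4 genes) to at most 2.83 FPKM.

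With PAA, heme oxygenase, 1 of the biliverdin reductases, both ferritin subunits and the ferritin receptor were higher in both lines. These were HMOX1, BLVRB, FTH1, FTL and NCOA4, 5 genes of 9, and 12.4% of all tested genes were likewise called higher in both. TFRC passed downward in both lines, as did 8.72% of all tested genes, and its call in RKO depended on the scaling. In RKO, 5 of the 9 were higher, 1 lower and 3 not called, where 40.0% of all tested genes were called (25.7% higher, 14.3% lower). In HCT-116, 6 were higher and 3 lower, where 47.1% of all genes were called (21.7% higher, 25.3% lower). The median log2 fold change of the 9 genes was 0.46 in RKO, where that of all tested genes was 0.06, and 0.15 in HCT-116, where that of all genes was -0.01. PAA and DMSO libraries did not overlap for 7 of the 9 genes in RKO and for all 9 in HCT-116. The corresponding shares of all tested genes were 61.6% in RKO and 56.5% in HCT-116.

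**Figure D1:**
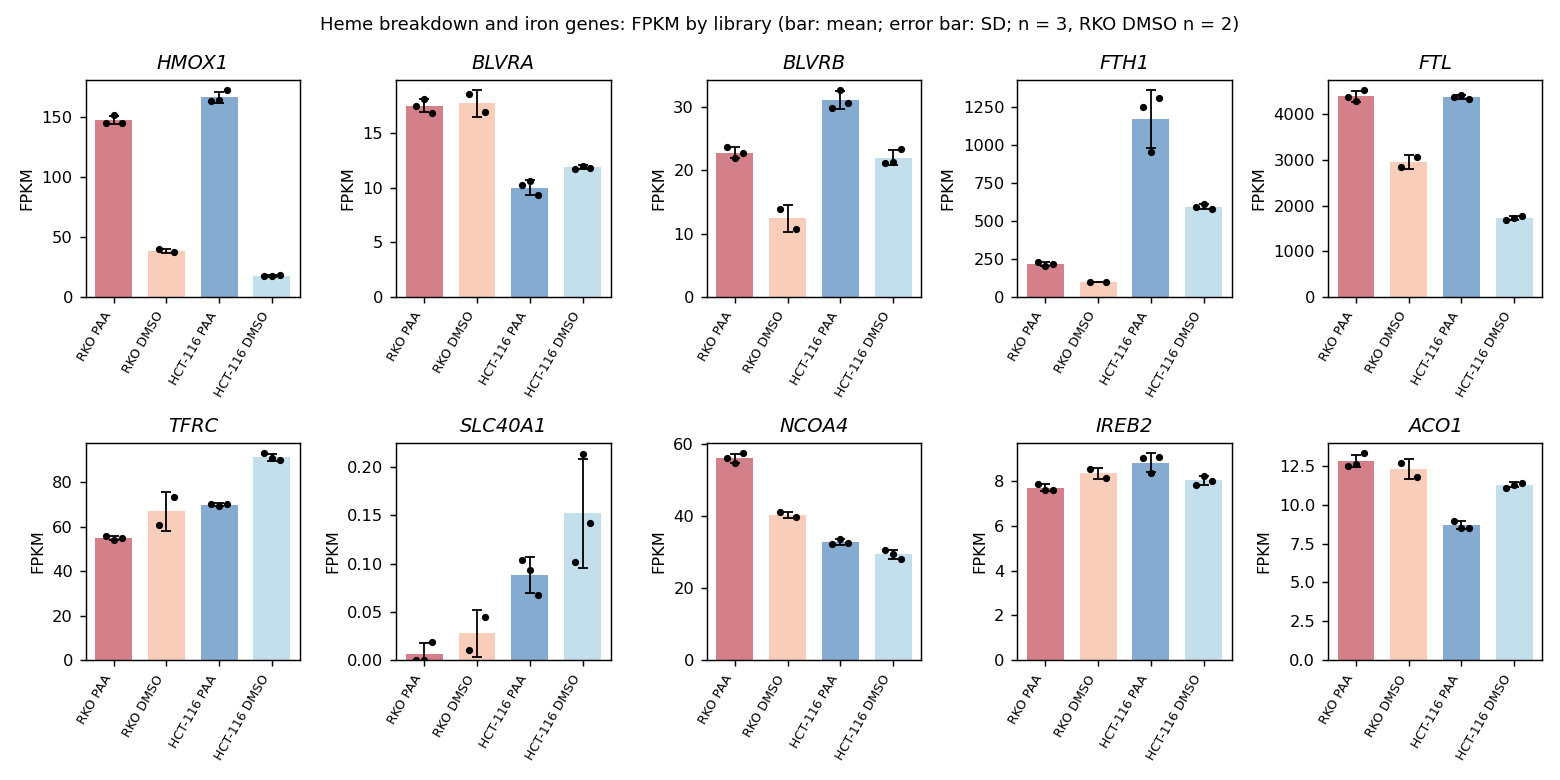
FPKM of the 10 genes in each library (points), with the group mean (bar) and SD (error bar), each panel on its own linear axis that starts at 0. HMOX1, BLVRB, FTH1 and FTL stand higher with PAA than with DMSO in both lines. FTL reaches about the same FPKM, as deposited, in both lines with PAA, and SLC40A1 stays at or under 0.214 FPKM throughout.

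HMOX1 (ENSG00000100292, GRCh38 chromosome 22, 35380361 to 35394214, plus strand) encodes the stress-inducible heme oxygenase. In RKO it had 145, 151 and 145 FPKM with PAA, against 39.5 and 37.3 FPKM with DMSO. HCT-116 libraries had 163, 164 and 172 FPKM with PAA, against 17.4, 16.9 and 18 FPKM with DMSO. All PAA libraries stood far above all DMSO libraries, and the spread within each group was small. The ratio of mean FPKM was 3.83 in RKO, a log2 fold change of 1.91 ± 0.0422 (SE; adjusted p = 1.63e-08), and it ranked 23 from the highest of 13881 genes. The ratio was 9.56 in HCT-116, a log2 fold change of 3.19 ± 0.0378 (adjusted p = 1.81e-10), with rank 2. The PAA effect in RKO minus that in HCT-116 was -1.27 ± 0.0567 on the log2 scale (95% interval -1.40 to -1.15, adjusted p = 1.26e-06). With DMSO alone the lines stood apart the other way: HMOX1 was 2.20 times as high in RKO as in HCT-116, with a log2 difference of 1.10 ± 0.0422 (adjusted p = 2.1e-08). With PAA, HMOX1 averaged 147 ± 3.59 FPKM in RKO and 166 ± 4.61 FPKM in HCT-116 (SD).

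Nearly all HMOX1 signal came from HMOX1-201, the transcript that held 97.5% of the summed isoform FPKM on average over the 11 libraries. In the isoform test, 4.2% of 46522 isoforms were called in RKO and 7.28% in HCT-116. HMOX1-201 had a log2 fold change of 1.92 ± 0.0569 in RKO (adjusted p = 6.55e-07) and 3.22 ± 0.0509 in HCT-116 (adjusted p = 1.45e-08). HMOX2, the constitutive heme oxygenase, was not called in either line: its log2 fold change was -0.43 ± 0.155 in RKO (adjusted p = 0.0535) and 0.04 ± 0.138 in HCT-116 (adjusted p = 0.84). Within a library, where scaling cancels, HMOX1 was 18.8 ± 3.98 times HMOX2 in RKO with PAA and 3.47 ± 0.18 times with DMSO (SD). In HCT-116 it was 13.1 ± 2.08 times HMOX2 with PAA and 1.41 ± 0.128 times with DMSO. PAA and DMSO ratios did not overlap in either line, and each exact permutation test gave p = 0.1, the smallest that these group sizes allow.

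The biliverdin reductases parted. BLVRB (ENSG00000090013, chromosome 19, 40447765 to 40465840, minus strand), the broad flavin and biliverdin reductase, had 23.7, 21.9 and 22.8 FPKM in RKO with PAA, against 13.9 and 10.8 with DMSO. HCT-116 cells had 29.9, 32.7 and 30.6 FPKM with PAA, against 21.2, 21.3 and 23.3 with DMSO. No PAA library overlapped a DMSO library in either line. BLVRB rose by 0.84 ± 0.0906 on the log2 scale in RKO (adjusted p = 0.000111) and by 0.48 ± 0.081 in HCT-116 (adjusted p = 0.00108). The difference between the effects, RKO minus HCT-116, was 0.36 ± 0.122 and missed the threshold (adjusted p = 0.0519). It was 0.19 without RKO DMSO replicate 3, and 0.52 without RKO DMSO replicate 2, which passed. Its main transcript BLVRB-201 rose as well, by 0.87 ± 0.123 in RKO (adjusted p = 0.00577) and 0.57 ± 0.11 in HCT-116 (adjusted p = 0.0161), where the call was lost without PAA replicate 2 or DMSO replicate 1 or 2.

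BLVRA (ENSG00000106605, chromosome 7, 43758680 to 43807342, plus strand), the reductase that makes the main adult form of bilirubin, was not called in RKO and was lower in HCT-116. It had 17.5, 18.1 and 16.8 FPKM in RKO with PAA, against 18.6 and 16.9 with DMSO, values that overlapped. HCT-116 had 10.2, 10.6 and 9.33 FPKM with PAA, against 11.7, 12 and 11.8 with DMSO, so every PAA library was the lower. BLVRA had a log2 fold change of -0.02 ± 0.0594 in RKO (95% interval -0.15 to 0.12, adjusted p = 0.863) and -0.22 ± 0.0531 in HCT-116 (adjusted p = 0.00757). With libraries scaled to a common total, BLVRA had 0.25 in RKO, a call that lay at -0.02 relative to the median of all genes, and -0.12 in HCT-116, where the call was lost. The within-library ratio was 1.31 ± 0.0806 with PAA and 0.695 ± 0.0738 with DMSO in RKO, and 3.10 ± 0.167 with PAA and 1.85 ± 0.102 with DMSO in HCT-116 (SD; exact permutation p = 0.1 each). In RKO, BLVRB was thus the higher with PAA and BLVRA the higher with DMSO.

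The ferritin subunits rose in both lines but from very different starting points. FTL (ENSG00000087086, chromosome 19, 48965301 to 48966878, plus strand), the light subunit, had 4370, 4290 and 4530 FPKM in RKO with PAA, against 2850 and 3070 with DMSO. The HCT-116 libraries had 4380, 4420 and 4330 FPKM with PAA, against 1680, 1720 and 1770 with DMSO. As deposited, both lines thus came to about the same FTL level with PAA, 4390 ± 120 FPKM in RKO and 4380 ± 44.6 FPKM in HCT-116 (SD). The order of the lines depended on the scaling. With PAA, FTL was 1.66% of all FPKM in RKO and 1.47% in HCT-116, but 2.03% and 2.14% of nuclear FPKM. FTL rose by 0.57 ± 0.0378 on the log2 scale in RKO (adjusted p = 6.97e-06) and by 1.35 ± 0.0338 in HCT-116 (adjusted p = 9.82e-09). The effect in RKO minus that in HCT-116 was -0.78 ± 0.0508 (95% interval -0.89 to -0.66, adjusted p = 1.12e-05). With DMSO, FTL stood 0.78 ± 0.0378 higher on the log2 scale in RKO than in HCT-116 (adjusted p = 1.04e-07).

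By mean FPKM, FTL ranked first among nuclear genes in RKO with PAA, in RKO with DMSO and in HCT-116 with PAA, and it ranked 4 in HCT-116 with DMSO. It made up 1.66% of all FPKM in RKO with PAA and 0.915% with DMSO, and 1.47% in HCT-116 with PAA and 0.534% with DMSO. The table holds a single FTL transcript, so no shift between isoforms can enter its value.

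FTH1 (ENSG00000167996, chromosome 11, 61959718 to 61967660, minus strand), the heavy subunit, had 230, 204 and 216 FPKM in RKO with PAA, against 96.1 and 99.4 with DMSO. It had 1250, 951 and 1310 FPKM in HCT-116 with PAA, against 592, 612 and 578 with DMSO. The groups did not overlap in either line, and HCT-116 PAA replicate 2 was the lowest of its group. FTH1 rose by 1.14 ± 0.118 on the log2 scale in RKO (adjusted p = 8.91e-05) and by 0.96 ± 0.105 in HCT-116 (adjusted p = 7.73e-05). The effects were not called different, at 0.17 ± 0.158 (95% interval -0.18 to 0.53, adjusted p = 0.455), and the difference was 0.03 without HCT-116 PAA replicate 2. The lines themselves differed far more than the treatment: with DMSO, RKO minus HCT-116 was -2.59 ± 0.118 on the log2 scale (adjusted p = 6.77e-08), with a mean of 97.8 FPKM in RKO and 594 FPKM in HCT-116. Exons of FTH1 overlap those of BEST1 on the opposite strand over 62.4% of their length, and BEST1 was at most 1.04 FPKM in any library.

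The balance of the subunits differed in opposite senses in the lines. In RKO the FTL to FTH1 ratio within a library was 19.0, 21.1 and 21.0 with PAA, against 29.7 and 30.8 with DMSO. In HCT-116 it was 3.52, 4.65 and 3.31 with PAA, against 2.84, 2.81 and 3.05 with DMSO. Every RKO library with PAA was below its vehicle libraries and every HCT-116 library with PAA was above them, a log2 difference of -0.57 in RKO and 0.38 in HCT-116 (exact permutation p = 0.1 each). Without HCT-116 PAA replicate 2 the HCT-116 difference was 0.24. These are ratios of gene values. By summed isoforms FTL was unchanged, but mean FTH1 was 469 FPKM in RKO with PAA and 208 with DMSO. In HCT-116 mean FTH1 was 2550 FPKM with PAA and 1270 with DMSO. These sums exceed the gene values of FTH1, so ratios of summed isoforms are lower in every group. The 8 ratio tests, 4 ratios in each of the lines, all had an adjusted p of 0.1, so none could pass 0.05 at these group sizes.

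**Figure D2:**
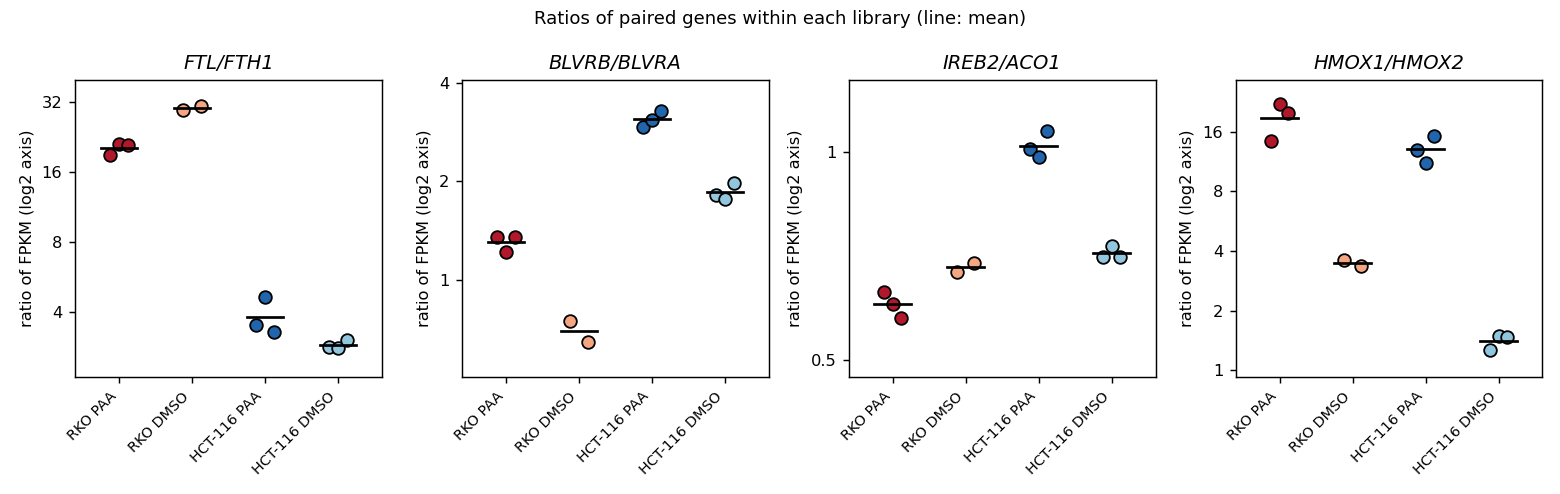
Ratio of FPKM between paired genes in each library (points) and its group mean (line) on log2 axes. The BLVRB to BLVRA and HMOX1 to HMOX2 ratios are higher with PAA in both lines, whereas the FTL to FTH1 and IREB2 to ACO1 ratios are lower with PAA in RKO and higher with PAA in HCT-116.

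FTH1 transcripts were not stable in their split. FTH1-201, the transcript with the largest mean share (28.8%), had 94.5, 106 and 126 FPKM in RKO with PAA, against 60.4 and 76.0 with DMSO, and was not called there (log2 fold change 0.66 ± 0.196, adjusted p = 0.113). In HCT-116 it had 756, 725 and 728 FPKM with PAA, against 491, 304 and 371 with DMSO, and was called (0.95 ± 0.175, adjusted p = 0.0138). FTH1-207, which lacks the hairpin, ran from 8.14 to 172 FPKM among the 3 RKO libraries with PAA and from 128 to 581 among the 3 HCT-116 libraries with DMSO. Replicates of 1 group thus disagreed by far on this transcript. The transcripts with the hairpin held 76.3% ± 19.5 of the isoform sum in RKO with PAA and 94.0% ± 2.83 with DMSO, and 56.7% ± 9.02 in HCT-116 with PAA and 66.6% ± 15.2 with DMSO (SD). The sum over all 12 transcripts gave FTH1 a log2 fold change of 1.17 in RKO and 1.00 in HCT-116, close to the gene values.

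Ferritin genes have many processed copies, and reads of near-identical copies can be split among them, so values for these loci are uncertain. The table lists 41 loci named FTH1P or FTLP, and 11 were tested. With PAA, 6 of the 11 were higher and none lower in RKO, with a median log2 fold change of 0.59. In HCT-116, 10 were higher and none lower, with a median of 0.96. Over all tested genes, 25.7% were higher in RKO and 21.7% in HCT-116. Since reads can be split among these loci, their calls may not be independent. The FTH1P loci summed to 39.4 ± 2.08 FPKM in RKO with PAA and 18 ± 2.66 with DMSO, and to 211 ± 4.3 FPKM in HCT-116 with PAA and 97.0 ± 3.12 with DMSO (SD). Their share of FTH1 and copies together stayed between 13.4% and 18.2% in all libraries. The FTLP loci held between 0.152% and 0.245% of the FTL family. FTH1P2 had a log2 fold change of 1.28 ± 0.127 in RKO (adjusted p = 7.09e-05) and 1.10 ± 0.114 in HCT-116 (adjusted p = 5.53e-05), near that of FTH1. FTH1P7 rose by 1.25 in RKO and 0.96 in HCT-116, FTH1P23 by 0.85 in RKO and 0.91 in HCT-116, and FTH1P8 by 0.67 in RKO and 1.21 in HCT-116. FTH1P10 rose in HCT-116 by 2.06 and had 0.78 ± 0.665 in RKO (adjusted p = 0.403). The FTH1P10 value in HCT-116 was 1.20 without HCT-116 DMSO replicate 2, a library with 0.347 FPKM of it.

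NCOA4 (ENSG00000266412, chromosome 10, 46005088 to 46030714, minus strand), which delivers ferritin for breakdown, rose in both lines. It had 56.1, 54.8 and 57.5 FPKM in RKO with PAA, against 41.1 and 39.8 with DMSO. HCT-116 libraries held 32.2, 33.7 and 32.5 FPKM with PAA, against 30.6, 29.5 and 28.2 with DMSO. The groups were well apart in RKO and barely apart in HCT-116. NCOA4 rose by 0.46 ± 0.042 on the log2 scale in RKO (adjusted p = 4.21e-05) and by 0.15 ± 0.0376 in HCT-116 (adjusted p = 0.00856), and the effect in RKO was the larger by 0.31 ± 0.0563 (adjusted p = 0.00321). The HCT-116 call was lost with a common total of nuclear genes, at 0.09. The transcript NCOA4-204, with 90.6% of the isoform sum on average, rose by 0.42 ± 0.075 in RKO (adjusted p = 0.0182), a call that held without PAA replicate 2 but not without any other RKO library. It had 32.3 ± 1.07 FPKM in HCT-116 with PAA and 32.4 ± 2.23 with DMSO (SD), and was not called there (0.00 ± 0.0671, adjusted p = 1). In HCT-116, NCOA4-204 held 83.5% of the sum with PAA and 94.5% with DMSO.

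TFRC (ENSG00000072274, chromosome 3, 196027183 to 196082189, minus strand), the transferrin receptor, fell. It had 55.8, 53.9 and 54.7 FPKM in RKO with PAA, against 60.8 and 73.1 with DMSO. HCT-116 cells had 70.3, 69.3 and 70.0 FPKM with PAA, against 92.9, 90.7 and 89.9 with DMSO. All PAA libraries were below all DMSO libraries in each line, but the RKO vehicle libraries were farther from each other than the lower of them was from any PAA library. Its log2 fold change was -0.28 ± 0.0639 in RKO (adjusted p = 0.00747) and -0.38 ± 0.0572 in HCT-116 (adjusted p = 0.000564). In RKO it was -0.15 without DMSO replicate 3 and -0.41 without DMSO replicate 2. Scaled to a common total per library, TFRC had 0.00 in RKO (adjusted p = 0.984), or -0.27 relative to the median of all genes, where it had -0.34 relative to that median as deposited. The sum of isoforms gave -0.14 in RKO (adjusted p = 0.237), so the call there was lost under both changes. The difference between the effects was 0.10 ± 0.0858 (95% interval -0.09 to 0.29, adjusted p = 0.429). The transcripts that carry the 4 matched sites held 81.2% ± 2.09 of the isoform sum in RKO with PAA and 91.0% ± 2.01 with DMSO. In HCT-116 they held 84.1% ± 5.7 with PAA and 84.1% ± 2.39 with DMSO (SD).

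SLC40A1 (ENSG00000138449, chromosome 2, 189560579 to 189583758, minus strand), the only known iron exporter, was hardly detected. It was listed at 0, 0 and 0.019 FPKM in RKO with PAA, against 0.0108 and 0.0451 with DMSO. Levels in HCT-116 were 0.104, 0.0937 and 0.068 FPKM with PAA, against 0.102, 0.214 and 0.142 with DMSO. The groups overlapped in each line, and no fold change or test is given at this level. The multicopper oxidases that partner it, HEPH and CP, reached at most 0.0438 and 0.0349 FPKM, and HAMP, which encodes the hormone hepcidin that removes ferroportin, at most 0.0761 FPKM.

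Of the genes of the iron regulatory proteins, ACO1 was lower in HCT-116 with PAA, and a small rise of IREB2 there was not a stable call. ACO1 (ENSG00000122729, chromosome 9, 32384603 to 32454769, plus strand) had 12.5, 12.6 and 13.3 FPKM in RKO with PAA, against 12.7 and 11.8 with DMSO. HCT-116 libraries had 8.98, 8.51 and 8.53 FPKM with PAA, against 11.1, 11.3 and 11.4 with DMSO. In RKO the groups overlapped, while every HCT-116 library with PAA was below the vehicle. ACO1 had a log2 fold change of 0.06 ± 0.0445 in RKO (95% interval -0.04 to 0.16, adjusted p = 0.334) and -0.34 ± 0.0398 in HCT-116 (adjusted p = 0.000113), and the effects differed by 0.40 ± 0.0597, RKO minus HCT-116 (adjusted p = 0.00113). Scaled to a common total, ACO1 in RKO had 0.33 and was called (adjusted p = 0.00115), and with median-of-ratios factors it had -0.04. ACO1-201 fell in HCT-116 too, by 0.40 ± 0.0976 (adjusted p = 0.0429), a call that held without PAA replicate 1 but not without any other HCT-116 library.

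IREB2 (ENSG00000136381, chromosome 15, 78437431 to 78501456, plus strand) had 7.88, 7.63 and 7.62 FPKM in RKO with PAA, against 8.53 and 8.17 with DMSO. HCT-116 had 9.06, 8.35 and 9.09 FPKM with PAA, against 7.85, 8.24 and 8.03 with DMSO. The PAA libraries were slightly the lower in RKO and slightly the higher in HCT-116. IREB2 had a log2 fold change of -0.10 ± 0.0458 in RKO (adjusted p = 0.113) and 0.12 ± 0.041 in HCT-116 (adjusted p = 0.0382). The HCT-116 call was lost without HCT-116 PAA replicate 1 or 3, HCT-116 DMSO replicate 1 or 3, or RKO PAA replicate 2 or 3. It was also lost with nuclear totals (0.06, adjusted p = 0.282) and isoform sums (0.06, adjusted p = 0.627). The same held with no filter on low values (adjusted p = 0.059) and with each line fitted alone (adjusted p = 0.0846). In RKO IREB2 was called upward with a common total, at 0.15 (adjusted p = 0.0407), and downward with median-of-ratios factors, at -0.19 (adjusted p = 0.00923). With nuclear totals the difference between the effects was -0.19 (adjusted p = 0.0624), and with isoform sums -0.13 (adjusted p = 0.499). As deposited it was -0.22 ± 0.0615 and was called (adjusted p = 0.0242). That call was lost with libraries scaled to a common total (-0.07, adjusted p = 0.51) and without HCT-116 PAA replicate 1 or 3, HCT-116 DMSO replicate 1, RKO PAA replicate 2 or RKO DMSO replicate 2. Within a library, on gene values, IREB2 was 0.602 ± 0.027 times ACO1 in RKO with PAA and 0.681 ± 0.0152 times with DMSO (SD). In HCT-116 it was 1.02 ± 0.043 times ACO1 with PAA and 0.714 ± 0.0155 times with DMSO (SD). Each exact permutation test gave p = 0.1. On these gene values the lines were close in this ratio with DMSO, and with PAA they were not. By summed isoforms, mean IREB2 was above mean ACO1 in every group. These means were 15.3 against 14.8 FPKM in RKO with PAA, where libraries overlapped, and 16.2 against 13.4 with DMSO. In HCT-116 they were 17.9 against 9.55 FPKM with PAA and 17.2 against 11.9 with DMSO.

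**Figure D3:**
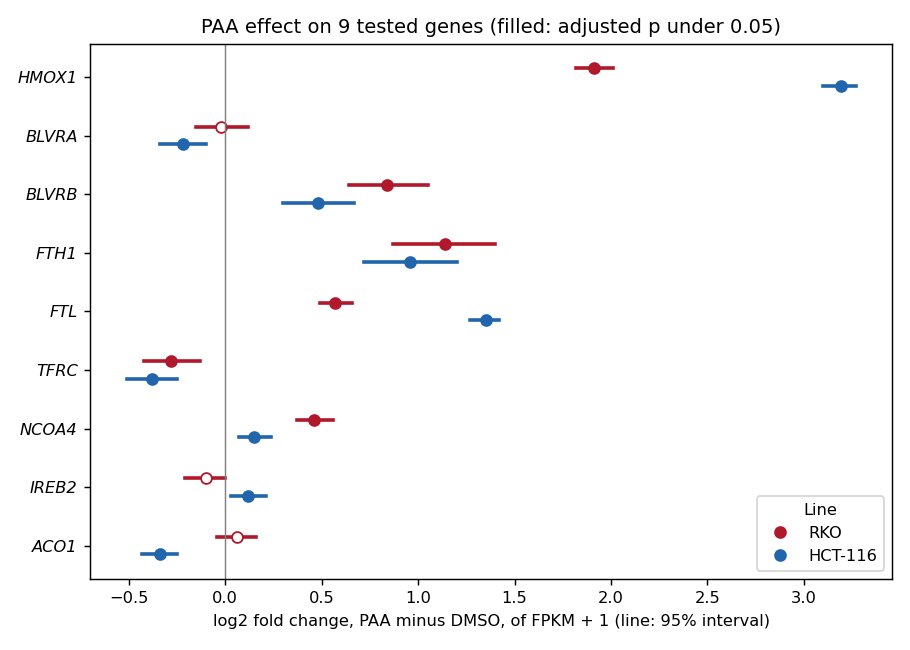
PAA effect (log2 fold change of FPKM + 1, PAA minus DMSO) on the 9 tested genes in each line, with 95% intervals from limma, filled where the adjusted p is under 0.05. HMOX1 (1.91 in RKO, 3.19 in HCT-116) and FTL (0.57 and 1.35) lie further right in HCT-116, NCOA4 lies further right in RKO, and ACO1 is left of 0 in HCT-116 alone (-0.34).

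Across the 9 tested genes, the difference of PAA effects between the lines was called for 5. HMOX1, FTL and IREB2 had a smaller value in RKO, and NCOA4 and ACO1 had a larger one. The IREB2 call was lost with a common total per library, nuclear totals or isoform sums. Over all tested genes, 31.0% were called in that test (21.3% larger in RKO, 9.68% smaller). Between the lines with DMSO, 7 of the 9 were called, where 64.1% of all genes were (33.4% higher in RKO, 30.7% lower), and libraries did not overlap for 8, where 76.3% of all genes did not. HMOX1, BLVRA, FTL and NCOA4 were higher in RKO, and BLVRB, FTH1 and TFRC were lower in RKO, by 0.79 ± 0.0906 for BLVRB (adjusted p = 4.6e-05) and 0.45 ± 0.0639 for TFRC (adjusted p = 0.000213). IREB2 and ACO1 were not called between the lines, at 0.05 and 0.11. These line comparisons share their vehicle libraries with the PAA effects.

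In order of mean FPKM, FTL led in all 4 groups and SLC40A1 came last. The orders that follow are those of the gene values, and summed isoforms changed some places. By summed isoforms, TFRC averaged 102 FPKM and NCOA4 65.5 in RKO with PAA. HMOX1 had 57.7 and NCOA4 47.1 in RKO with DMSO, and BLVRB had 43.3 and NCOA4 34.3 in HCT-116 with DMSO. In RKO with PAA the order after FTL was FTH1, HMOX1, NCOA4, TFRC, BLVRB, BLVRA, ACO1 and IREB2. NCOA4 and TFRC, at 56.1 ± 1.35 and 54.8 ± 0.934 FPKM, were within their spread of each other there. In RKO with DMSO it was FTH1, TFRC, NCOA4, HMOX1, BLVRA, BLVRB, ACO1 and IREB2, with BLVRB and ACO1 within their spread at 12.4 ± 2.16 and 12.3 ± 0.646 FPKM. In HCT-116 with PAA it was FTH1, HMOX1, TFRC, NCOA4, BLVRB, BLVRA, IREB2 and ACO1, where NCOA4 and BLVRB, at 32.8 ± 0.804 and 31.1 ± 1.44 FPKM, had library values that overlapped, as did IREB2 and ACO1. In HCT-116 with DMSO it was FTH1, TFRC, NCOA4, BLVRB, HMOX1, BLVRA, ACO1 and IREB2. With FTL counted, HMOX1 held the third place in both lines with PAA. With DMSO it held the fifth place in RKO and the sixth place in HCT-116.

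Around these genes, the transcription factors that act on HMOX1 and the ligase parts that control the iron regulatory proteins were measured as a list of 10, all tested. The counts of this and the following lists stand against 25.7% of all tested genes higher and 14.3% lower in RKO, and 21.7% higher and 25.3% lower in HCT-116. In RKO 3 were higher and 1 lower, with a median log2 fold change of -0.03, and in HCT-116 4 were higher and 1 lower, with a median of 0.27. MAFF, a small MAF protein that pairs with NRF2 or BACH1, had 17.5, 17 and 16.6 FPKM in RKO with PAA, against 6.61 and 6.52 with DMSO, and 9.51, 10.4 and 9.92 FPKM in HCT-116 with PAA, against 2.43, 2.39 and 2.67 with DMSO. It rose by 1.26 ± 0.0511 in RKO (adjusted p = 4.87e-07) and 1.65 ± 0.0457 in HCT-116 (adjusted p = 2.03e-08). BACH1, the heme-sensing repressor of HMOX1, rose by 0.37 ± 0.0941 in RKO (adjusted p = 0.0119) and 0.59 ± 0.0842 in HCT-116 (adjusted p = 0.000406). In RKO the BACH1 call was lost without DMSO replicate 3 and with isoform sums (0.30, adjusted p = 0.113).

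NFE2L2 had 12.3, 11.6 and 9.27 FPKM in RKO with PAA, against 3.40 and 8.90 with DMSO, so the vehicle libraries were far from each other. Its log2 fold change there was 0.86 ± 0.281 (adjusted p = 0.0371), but 0.27 without DMSO replicate 2 and 1.44 without DMSO replicate 3. That call was also lost without RKO PAA replicate 1 or 2, HCT-116 PAA replicate 1 or 2, or any HCT-116 DMSO library. In HCT-116 it was 0.26 ± 0.251 (adjusted p = 0.429). KEAP1, which marks NRF2 for degradation, rose in HCT-116 by 0.45 ± 0.109 (adjusted p = 0.00811) and had -0.10 ± 0.122 in RKO (adjusted p = 0.561). FBXL5, the iron-sensing ligase part that degrades IRP2, was higher in HCT-116 at 0.28 ± 0.0661 (adjusted p = 0.00715) and had -0.03 ± 0.0739 in RKO (adjusted p = 0.769). FBXL5 lies outside the rule for named genes and was chosen after its values were seen.

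Heme synthesis enzymes were called in both directions. Of 9 enzymes 8 were tested, since the erythroid form ALAS2 was listed at 0. In RKO 3 were higher and 1 lower, with a median log2 fold change of 0.04, and in HCT-116 1 was higher and 4 lower, with a median of -0.10. CPOX, coproporphyrinogen oxidase, had 9.46, 15.8 and 16 FPKM in RKO with PAA, against 26.2 and 25.3 with DMSO, and 47.2, 43.5 and 44.1 FPKM in HCT-116 with PAA, against 156, 150 and 89.0 with DMSO. All PAA libraries were below all vehicle libraries, with 1 library apart in RKO with PAA and 1 in HCT-116 with DMSO. It fell by 0.89 ± 0.264 in RKO (adjusted p = 0.0245), a call lost without PAA replicate 1 (at -0.66) and without either DMSO library, and by 1.49 ± 0.236 in HCT-116 (adjusted p = 0.000761). With a common total per library the RKO value was -0.62 (adjusted p = 0.0666). UROS, uroporphyrinogen synthase, fell by 0.39 ± 0.058 in HCT-116 (adjusted p = 0.000522) and had -0.11 ± 0.0649 in RKO (adjusted p = 0.207).

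FECH, ferrochelatase, which puts iron into the ring, rose in HCT-116 by 0.24 ± 0.0793 (adjusted p = 0.0361), while PPOX and ALAD rose in RKO by 0.21 each (adjusted p = 0.0454 and 0.048). These 3 calls lay near the threshold. That of FECH was lost without HCT-116 PAA replicate 1, HCT-116 DMSO replicate 2 or 3, or RKO PAA replicate 3. Those of PPOX and ALAD were lost without any RKO library, HCT-116 PAA replicate 2 or 3, or HCT-116 DMSO replicate 3, and that of ALAD also without HCT-116 PAA replicate 1. With median-of-ratios factors PPOX had 0.14 (adjusted p = 0.172) and ALAD 0.12 (adjusted p = 0.248) in RKO, with isoform sums the adjusted p was 0.904 and 0.2, and with nuclear totals FECH had 0.18 in HCT-116 (adjusted p = 0.106). ALAD, the second enzyme of the pathway, was lower in HCT-116, at -0.20 ± 0.065 (adjusted p = 0.0299).

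Heme carriers were a list of 10. Of these, 7 were tested, with 2 higher and 1 lower in RKO (median log2 fold change 0.02) and 2 higher and 3 lower in HCT-116 (median -0.10). In RKO these counts were near the shares of all tested genes, 25.7% higher and 14.3% lower. SLC48A1, the lysosomal heme transporter HRG1, rose by 0.66 ± 0.0874 in RKO (adjusted p = 0.000373) and 0.65 ± 0.0782 in HCT-116 (adjusted p = 0.000135). It had 8.95 ± 0.15 FPKM in RKO with PAA and 5.31 ± 0.432 with DMSO, and 8.12 ± 0.432 in HCT-116 with PAA and 4.82 ± 0.65 with DMSO (SD). FLVCR1, described as a heme exporter and a choline transporter, fell by 0.18 ± 0.0441 in RKO (adjusted p = 0.0092), a call lost without RKO DMSO replicate 3 and a direction that turned with libraries scaled to a common total (0.07), and by 0.52 ± 0.0395 in HCT-116 (adjusted p = 7.37e-06). HEBP2, a heme-binding protein, rose in RKO and in HCT-116, by 0.20 and 0.32. Its RKO call was lost with median-of-ratios factors (0.11, adjusted p = 0.0585), isoform sums (0.16, adjusted p = 0.227) and the replicate block (adjusted p = 0.0586). SLC46A1, a folate carrier that also takes up heme, fell in HCT-116 by 0.43 ± 0.0751 (adjusted p = 0.00128).

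Among genes of iron uptake and intracellular release, 11 of 14 were tested. In RKO 3 were higher and 1 lower (median 0.03), and in HCT-116 1 was higher and 4 lower (median 0.01). MCOLN1, the lysosomal channel TRPML1 that lets iron out, had 11.2, 11.4 and 11 FPKM in RKO with PAA, against 6.11 and 5.75 with DMSO, a rise of 0.82 ± 0.0751 (adjusted p = 4.5e-05). In HCT-116 its log2 fold change was 0.13 ± 0.0672 (adjusted p = 0.148), and the effects differed by 0.69 ± 0.101 (adjusted p = 0.00104). SLC11A2, the ferrous iron transporter DMT1, rose in RKO by 0.44 ± 0.0846 (adjusted p = 0.00296). SLC39A14, the carrier ZIP14, rose there by 1.16 ± 0.333 (adjusted p = 0.0215) with 47.0, 22.5 and 46.4 FPKM with PAA, against 15.5 and 16.3 with DMSO, a call lost when PAA replicate 1 or 3 or either DMSO library was left out.

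In the same list SLC39A8, the carrier ZIP8, fell in RKO by 0.31 ± 0.0427 (adjusted p = 0.000499) and in HCT-116 by 0.75 ± 0.0382 (adjusted p = 6.53e-07). STEAP3, the endosomal ferrireductase that works beside TFRC, had 5.77 ± 0.0696 FPKM in RKO with PAA and 5.65 ± 0.527 with DMSO, and 4.53 ± 0.165 in HCT-116 with PAA and 7.57 ± 0.0795 with DMSO (SD). It fell in HCT-116 by 0.63 ± 0.0463 (adjusted p = 6.31e-06), and its effects differed between the lines by 0.66 ± 0.0695 (adjusted p = 0.000162). LCN2, the siderophore-binding lipocalin, is the 1 gene of the list counted as higher in HCT-116. It had 2.44, 3.5 and 2.01 FPKM there with PAA, against 0.804, 0.534 and 0.788 with DMSO, and at most 0.0288 FPKM in any RKO library. It reached 1 FPKM only in HCT-116 with PAA and entered the test through that group, so it had to differ and its call is read as no result. Its log2 fold change in HCT-116 was 1.08, or 1.75 with a pseudocount of 0.1.

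Iron chaperones, oxidases and the hepcidin axis were mostly silent, with 4 of 12 genes tested. PCBP1, the chaperone that hands iron to ferritin, had 168, 170 and 166 FPKM in RKO with PAA, against 191 and 188 with DMSO. It fell there by 0.18 ± 0.0409 (adjusted p = 0.00797), a call lost without RKO DMSO replicate 2 and a direction that turned when totals were made equal (0.11). In HCT-116 it had 0.07 ± 0.0366 (adjusted p = 0.163). NEO1, which encodes neogenin, a protein that binds hemojuvelin, fell in HCT-116 by 0.68 ± 0.0574 (adjusted p = 1.54e-05). Of this list 1 was lower in RKO and 1 in HCT-116, and none was called higher at an adjusted p under 0.05 in the limma test.

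Iron-sulfur cluster assembly is the other main use of cellular iron. Of 17 mitochondrial assembly genes, all tested, 5 were higher and 1 lower in RKO (median 0.01), and 5 were higher and 3 lower in HCT-116 (median -0.06). These counts lay near the shares of all tested genes, 25.7% higher and 14.3% lower in RKO and 21.7% higher and 25.3% lower in HCT-116, and are no result about the list. ISCU, the scaffold on which clusters are built, had 14.8 ± 0.392 FPKM in RKO with PAA and 9.08 ± 0.531 with DMSO, and 23.5 ± 1.32 in HCT-116 with PAA and 16.3 ± 0.306 with DMSO (SD). It rose by 0.65 ± 0.0537 in RKO (adjusted p = 2.37e-05) and 0.50 ± 0.048 in HCT-116 (adjusted p = 3.31e-05). The chaperone pair that releases clusters from it, HSPA9 and HSCB, rose as well: HSPA9 by 0.48 in RKO and 0.45 in HCT-116, and HSCB by 0.43 in RKO and 0.57 in HCT-116. The HSCB call in RKO was lost without RKO DMSO replicate 3. FDXR, ferredoxin reductase, fell in HCT-116 by 0.48 ± 0.0561 (adjusted p = 0.000111) and had 0.07 ± 0.0627 in RKO (adjusted p = 0.418).

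Of 10 cytosolic assembly genes, all tested, 4 were higher and 1 lower in RKO (median 0.12), and 1 was higher and 1 lower in HCT-116 (median -0.03). CIAO2B, a targeting subunit, rose by 0.34 ± 0.0698 in RKO (adjusted p = 0.00448) and 0.33 ± 0.0624 in HCT-116 (adjusted p = 0.00204). MMS19, its partner, had 0.20 ± 0.0549 in RKO (adjusted p = 0.0167) and -0.20 ± 0.0491 in HCT-116 (adjusted p = 0.00763). With a common total per library the HCT-116 value was -0.10 and its call was lost (adjusted p = 0.219). CIAO1 and CIAO3 rose in RKO, by 0.22 and 0.26, and both calls were lost without RKO DMSO replicate 2 and with median-of-ratios factors (adjusted p = 0.173 and 0.0638).

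**Figure D4:**
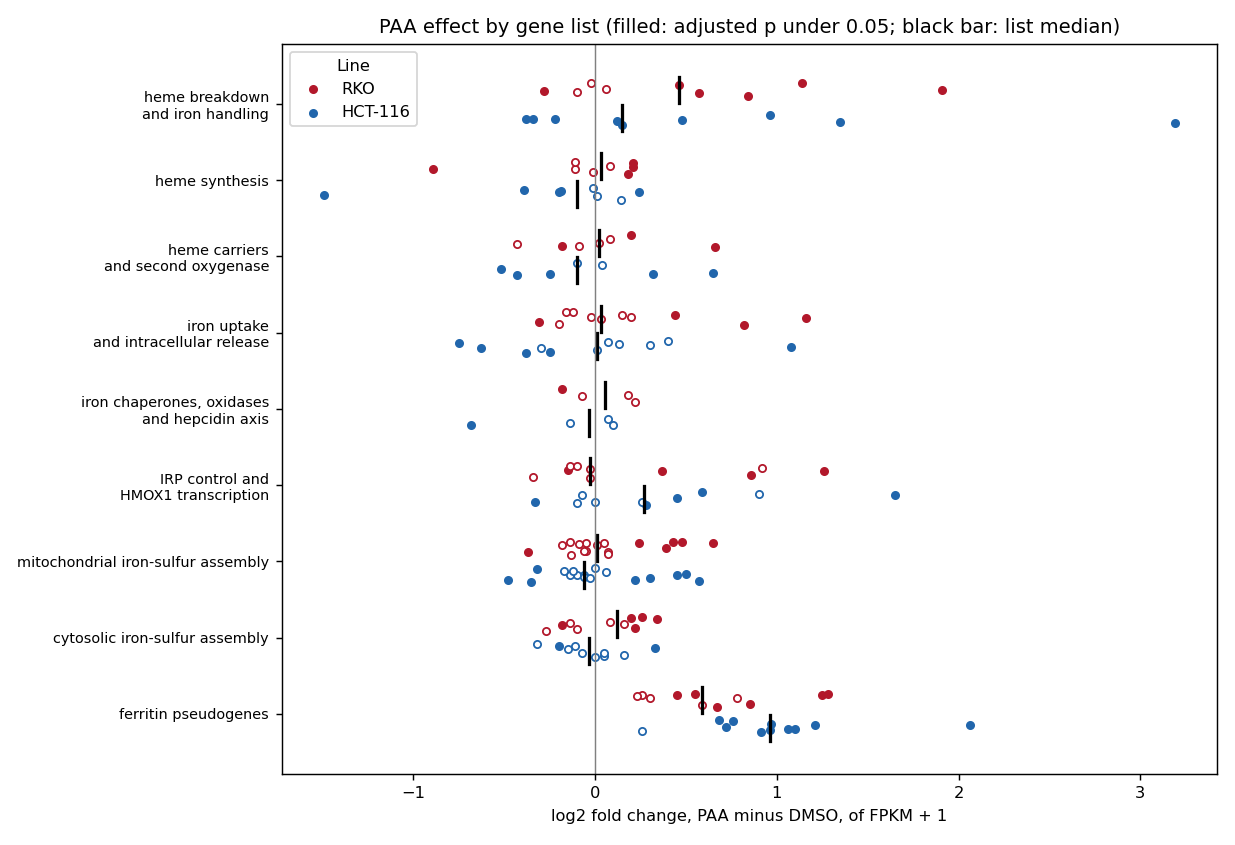
PAA effect (log2 fold change of FPKM + 1, PAA minus DMSO) for each tested gene of the lists, by line, filled where the adjusted p is under 0.05, with the list median as a black bar. The ferritin pseudogenes have the rightmost medians (0.59 in RKO, 0.96 in HCT-116), and heme synthesis has its farthest gene, CPOX, left of 0 in both lines.

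Promoters were read from RefSeq on GRCh38.p14 over 250 bases before to 50 after each start, and 8 of the 10 genes matched, with 10 promoters among them. HMOX1 and FTH1 were not matched and so were not searched. The 10 promoters were searched on both strands for TGACNNNGC, the core of the antioxidant response element that NRF2 and BACH1 bind with small MAF proteins. They were also searched for TGANTCA, a loose form of the AP-1 site TGA(C/G)TCA that leaves its middle base free. The first was in 13.3% of all 35116 promoters and the second in 7.71%. Among the 10 promoters, 1 of NCOA4 held TGACNNNGC, 23 bases after the start, and 1 of NCOA4 held TGANTCA, 230 bases before it. The latter read TGAATCA, whose middle A is not the C or G of the AP-1 site. A match is a description of letters, not of binding. A promoter without a match says nothing of elements outside this window, which were not searched.

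Likeness over the 11 libraries was described by Pearson's r of log2(FPKM + 1) with the 13880 other tested genes. Only genes with a symbol were ranked. No test was made, since the libraries fall into the same 4 groups and share depth and scaling. Nearest to HMOX1 were GAS5 (r = 0.998) and ZFAS1 (0.992), RNAs that host small nucleolar RNAs, with the chaperone gene HSPA13 (0.993) and the coat protein gene SEC24D (0.992). GAS5 had 48.9 FPKM in RKO with PAA and 24.7 with DMSO, and 52.7 in HCT-116 with PAA and 16.4 with DMSO. Nearest to FTL were NT5C3A (0.991), MED10 (0.990), UBXN4 (0.990) and SLC35F6 (0.988). Nearest to TFRC were 4 mitochondrial transfer RNA genes, MT-TH (0.987), MT-TR (0.984), MT-TG (0.981) and MT-TS2 (0.981). MT-TH had 38.1 FPKM in RKO with PAA and 98.1 with DMSO, and 109 in HCT-116 with PAA and 252 with DMSO. All 4 were lower with PAA than with DMSO in each line, as was the mitochondrial share. Across the lines, all 4 were lower in RKO with DMSO, at a share of 34.3%, than in HCT-116 with PAA, at a share of 31.3%. The part of that share in the likeness was not tested. When nuclear genes alone were scaled to equal totals, TFRC had -0.31 in RKO (adjusted p = 0.00231) and -0.44 in HCT-116 (adjusted p = 9.21e-05).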

How the data were processed

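Total RNA was taken with Trizol into Illumina libraries, per the labels' protocols. Trimming and quality tools (cutadapt 1.9, FastQC) and the build GRCh38 are named in the submitters' processing notes. Which aligner, quantifier and annotation release were used, and whether RNA was selected or strand kept, is not given in the sources used here. The authors deposited FPKM per gene (60612) and per isoform (229420). Symbols and coordinates came from GENCODE 29. The value 0.0001 stands for no signal and was set to 0. A gene value lay within 2% of its length-weighted isoforms in 78.7% of cases, so isoform use can move it. Only 16.1% to 20.7% of values of up to 10 fragments were whole multiples of 1 fragment (tolerance 0.02), so read counts could not be recovered and counting intervals are left out. FPKM totals ran from 264474 to 332021 per library.

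The 13881 genes that reached 1 FPKM in no fewer than 2 libraries were fitted as log2(FPKM + 1) with 1 mean per group over 11 libraries (limma 3.58.1 in R 4.3.3, mean-variance trend, 7 residual degrees of freedom, prior 1.82). P-values were adjusted by Benjamini-Hochberg over all genes, or over 46522 isoforms in the isoform fit, at 0.05. The scripts were tested on simulated data. Ratios within libraries used two-sided exact permutation tests over libraries, adjusted over 8. Other scalings, pseudocounts, filters, isoform sums, fits per line, a replicate block and fits without each library were tried.

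The genes, the lists and the rule for named genes were chosen with earlier results of these data known. Named genes were the 10 genes and, per list and line, up to 3 called genes. The called genes were those with the largest fold changes and no overlap between PAA and DMSO libraries. Isoforms with at least 10% of a gene's isoform sum in a group were named too. So were the 4 genes with a symbol most like HMOX1, FTL and TFRC. SLC40A1 was below the filter and got no such genes. Genes named only as untested or as markers were taken from the lists.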

Additional observations from a re-analysis of the deposited data

Results flagged for a closer look

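The PAA effect differed between the lines, by limma's test of the difference (adjusted p under 0.05), for 5 of the 9 tested genes of heme breakdown and iron handling. The difference on the log2 scale, RKO minus HCT-116, was -1.27 for HMOX1, -0.78 for FTL, 0.31 for NCOA4, -0.22 for IREB2 and 0.40 for ACO1. That of IREB2 was no longer called with a common total per library, nuclear totals or isoform sums. Of other genes named from the lists, the difference was positive for UROS (0.28), ALAD (0.41), FLVCR1 (0.34), SLC46A1 (0.52), SLC39A8 (0.45), STEAP3 (0.66), MCOLN1 (0.69), SLC11A2 (0.43), NEO1 (0.61), FDXR (0.55), MMS19 (0.41) and CIAO1 (0.33). It was negative for PCBP1 (-0.24), MAFF (-0.39), KEAP1 (-0.55) and FTH1P8 (-0.55). LCN2 had -1.10, but it stayed at or under 0.0288 FPKM in RKO and was tested only through its level in HCT-116 with PAA, so RKO could show no effect and the value compares no responses. ALAD and MMS19 were called higher in RKO and lower in HCT-116, but the ALAD call in RKO was lost under most alternatives (0.12 with median-of-ratios factors, adjusted p = 0.248), and the MMS19 call in HCT-116 was lost with a common total per library (-0.10, adjusted p = 0.219). Over all tested genes 31.0% differed by this test, and 2963 of the 4307 called were more positive in RKO, 68.8% as deposited, 86.0% with a common total per library and 51.2% with median-of-ratios factors.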

How the results depend on the processing

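HMOX1, BLVRB, FTH1 and FTL were called higher in both lines under every alternative run, and NCOA4 was in RKO. Of 1740 alternative values for single genes, isoforms and ratios, 1581 kept their direction and their side of the threshold. Part of that tally was fixed in advance. No ratio test could pass the threshold, and leaving out a library of 1 line cannot move a fold change within the other. With a common total per library, 8 genes were higher and 0 lower in RKO (5 and 1 as reported), 5 were higher in the test between lines, and 3699 isoforms were called in RKO. The lower count in RKO was 2 with median-of-ratios factors, 0 with isoform sums and 0 with each line alone. Leaving out 1 RKO library gave between 972 and 1474 isoform calls in RKO, against 1952, with the fewest without DMSO replicate 3 (972) and 2 (1070). Whether replicate numbers pair the samples is not known. Same-number correlations of deviations from group means were -0.142 to 0.0666, and groups of 2 or 3 libraries are too small for these to settle it. The replicate block gave 2739 calls between lines, against 4307. It ended 3 calls among the 9 genes, of NCOA4 and IREB2 in HCT-116 (adjusted p = 0.0539 and 0.13) and of IREB2 between lines (0.113), and 11 calls of other named genes. The share of calls that were higher in RKO was 64.3% as deposited, 90.4% with a common total and 48.5% with median-of-ratios factors, and in HCT-116 46.2%, 61.3% and 47.5%. Directions turned, mostly for values near 0. With a common total, in RKO, BLVRA was 0.25, TFRC 0.00, IREB2 0.15, FLVCR1 0.07, PCBP1 0.11, TFRC-202 0.17, IREB2-201 0.12 and ACO1-201 0.24, and in HCT-116 BLVRA-201 was 0.09 and NCOA4-204 0.11. With median-of-ratios factors ACO1 in RKO was -0.04 and the TFRC difference between lines -0.01. IREB2 between the lines with DMSO was -0.06 with nuclear totals and -0.08 with isoform sums. Over fits without single libraries, BLVRA in RKO ran from -0.08 to 0.05, the TFRC difference from -0.03 to 0.23, BLVRA-201 from -0.25 to 0.13 in HCT-116 and -0.05 to 0.08 in RKO, NCOA4-204 in HCT-116 from -0.05 to 0.05, TFRC-202 in RKO from -0.42 to 0.20 and ACO1-201 in RKO from -0.08 to 0.00. The IREB2 to ACO1 log2 difference in HCT-116 was 0.38 with isoform sums, against 0.51. The cause was not tested in these cases. RKO with DMSO rests on 2 libraries, which limits the precision of every RKO effect.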
